A study of Mus musculus with 10 samples.

Results

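Fezf2, Tbr1, Tle4, Zfpm2, Foxp1 and Foxp2 are 6 of the 31053 genes counted in single cells of mouse cortex at embryonic day E16.5. They were chosen by name as factors of deep-layer cortical neurons, when earlier results of these data were known. Each was followed per embryo within classes of cells named from marker genes. Layer II-IV-like cells, the class named for upper-layer neurons, were examined for cells that held transcripts of the factors.

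The cortex builds its layers from the inside out, so neurons of layers V and VI are born before those of layers II to IV, and transcription factors that repress each other settle which axons a neuron sends. Fezf2 is a zinc-finger factor needed for layer V neurons that project to the brainstem and spinal cord, and it acts through Bcl11b, also called Ctip2. Tbr1, a T-box factor, directs layer VI neurons toward the thalamus and represses Fezf2 there. Tle4 is a Groucho-type corepressor found in layer VI neurons. Zfpm2, also called Fog2, is a zinc-finger cofactor of GATA factors and is found in corticothalamic neurons. Foxp1 and Foxp2 are forkhead repressors that can pair with each other. Foxp1 is found in neurons of several layers and in the striatum, and Foxp2 in layer VI and in the striatum.

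Single-cell libraries were made from the dissociated cortex of 3 wild-type (WT) embryos, 4 embryos heterozygous for the mutant allele (Gatad2b stop/+, called Het) and 3 homozygous for it (Gatad2b stop/stop, called KO), and each embryo gave 1 library. The mutant allele carried a germline gene-trap cassette between the first coding exons of Gatad2b in every cell, on a C57BL/6N-A tm1Brd background, and KO mice die around birth. Gatad2b encodes a subunit of the NuRD chromatin remodeling complex, and the comparisons asked how the loss of 1 or both alleles changes cells of the cortex. The labels give neither the litter nor the sex of an embryo. Library names carry 1 of 2 prefixes of unstated meaning. WT replicates 1 to 3 and Het replicate 4 share one prefix, and Het replicates 1 to 3 and KO replicates 1 to 3 share the other, so prefix and genotype cannot be told apart in KO vs WT. In Het vs WT they are parted by Het replicate 4 alone, so the prefix bears on those p-values too. A fit with the prefix as a covariate links the prefixes through Het replicate 4 alone. Its KO values therefore also rest on that embryo. The difference between KO and Het replicates 1 to 3, which lies within a prefix, is given beside most KO changes. It compares the loss of both alleles with the loss of 1. A smaller value, or no call, within the prefix is thus no failed repeat of KO vs WT.

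Of 80071 barcodes, 65779 held 1000 or more UMIs (unique molecular identifiers, which count molecules rather than reads), of which no more than 10% were mitochondrial. They numbered 5147 to 8103 per embryo, with 82872641 to 123737385 UMIs in total and a median of 10795 to 17077.5 UMIs per cell. Any pair of libraries shared 4 to 19 barcodes. The targeted gene followed the labels. Gatad2b had 139, 131 and 133 normalized counts per 1000000 UMIs (CPM) in the WT embryos, 94.2, 89.8, 90.0 and 95.7 in Het, and 50.9, 52.8 and 57.3 in KO, and the groups did not overlap (log2 fold change −0.54 ± 0.05 (SE) in Het vs WT, adjusted p = 0.000756; −1.32 ± 0.05 in KO vs WT, adjusted p = 1.11e-07).

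In the GENCODE vM21 annotation of GRCm38, the 6 genes are protein-coding and lie on 5 chromosomes. Fezf2 spans 6.1 kb (chr14:12342094-12348189, minus strand) and Tbr1 11.2 kb (chr2:61802930-61814114, plus strand). Tle4 spans 149.9 kb (chr19:14448150-14598051, minus strand) and Zfpm2 449.6 kb (chr15:40655035-41104592, plus strand). Foxp1 (chr6:98925338-99522721, minus strand, 597.4 kb) and Foxp2 (chr6:14901349-15441977, plus strand, 540.6 kb) share a chromosome but lie far apart on it.

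Promoter sequences of RefSeq on GRCm38.p6, each holding the bases around an annotated transcription start, were matched for 4 of the 6 genes in 7 windows of 300 bases. Those of Fezf2 (chr14:12345816-12346115, minus strand) and Tbr1 (chr2:61804203-61804502, plus strand) are shown because these factors rose in the most classes described here, and both windows lie inside the GENCODE spans of their genes. Capitals mark a core motif of forkhead factors such as Foxp1 and Foxp2.

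Fezf2: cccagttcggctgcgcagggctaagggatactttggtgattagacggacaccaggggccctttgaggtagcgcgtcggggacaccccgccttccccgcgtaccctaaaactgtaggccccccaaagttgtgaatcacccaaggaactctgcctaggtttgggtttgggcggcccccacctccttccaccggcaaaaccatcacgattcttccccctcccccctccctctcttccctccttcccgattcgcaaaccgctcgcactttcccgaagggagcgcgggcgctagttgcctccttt

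Tbr1: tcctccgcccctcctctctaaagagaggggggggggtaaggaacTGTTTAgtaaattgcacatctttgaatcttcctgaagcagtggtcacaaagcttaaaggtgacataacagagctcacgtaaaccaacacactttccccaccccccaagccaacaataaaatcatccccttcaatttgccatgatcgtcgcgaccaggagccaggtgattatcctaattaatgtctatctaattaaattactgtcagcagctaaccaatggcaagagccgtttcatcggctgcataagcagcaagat

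The forkhead core TGTTTA, or TAAACA on the other strand, was found once in the Tbr1 window and not in the Fezf2 window, and 13.4% of 32851 promoter windows held it. The T-box core AGGTGT, or ACACCT, was found in neither, and 13.7% of windows held it. The Fezf2 window held 20 CG dinucleotides and the Tbr1 window 7, against a median of 7 over all windows. These matches describe letters only.

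In WT embryos the 6 factors had different homes. Levels in this paragraph are UMIs of the gene per 1000000 UMIs of the class, as means ± SD over 3 WT embryos, and neighbors in the order are called apart only where their embryos did not overlap. Fezf2 was highest in layer V-VI-like cells at 339 ± 10.9, apart from all other classes. Next came intermediate progenitor-like cells (60.1 ± 9.41), radial glia-like cells (47.7 ± 13.3), endothelial-like cells (35.2 ± 16.3) and layer II-IV-like cells (34.5 ± 3.13), where each class overlapped its neighbor. The remaining 7 classes held 6.26 to 14.9, each overlapping the next. Tbr1 was highest in Cajal-Retzius-like cells (223 ± 15.0), the pioneer neurons of layer I, followed apart by layer V-VI-like cells (192 ± 11.9). Intermediate progenitor-like cells (107 ± 3.73) and layer II-IV-like cells (95.9 ± 11.5) overlapped, and the other classes held 10.6 to 43.0. Tbr1 was thus no marker of deep layers alone at this age.

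Tle4 was highest in layer V-VI-like cells (478 ± 37.4), then apart in striatal-like cells (265 ± 20.0). The 8 classes from microglia-like cells (79.9 ± 39.1) to intermediate progenitor-like cells (40.3 ± 12.6) overlapped their neighbors, and layer II-IV-like cells (24.1 ± 0.644) and erythroid-like cells (11.7 ± 4.62) were last. Zfpm2 was highest in layer V-VI-like cells (103 ± 6.89), followed by radial glia-like cells (31.3 ± 5.56), intermediate progenitor-like cells (22.0 ± 0.841), ganglionic eminence progenitor-like cells (17.7 ± 1.12) and interneuron-like cells (13.5 ± 0.828), each apart from the one before. Layer II-IV-like cells held 5.54 ± 0.402, apart from the neighbors on either side, and the other classes 1.43 to 7.97. Both forkhead factors peaked outside the cortical layers. Foxp1 reached 1098 ± 106 in striatal-like cells, followed by layer V-VI-like (297 ± 25.7) and layer II-IV-like cells (210 ± 10.7), and the last overlapped mural and meningeal-like cells (200 ± 13.6) and endothelial-like cells (196 ± 47.7). The other 7 classes held 21.9 to 103. Foxp2 reached 444 ± 11.4 in striatal-like cells, then 107 ± 10.0 in layer V-VI-like cells, which overlapped intermediate progenitor-like cells (84.8 ± 11.2), and these overlapped ganglionic eminence progenitor-like cells (73.2 ± 4.84). Layer II-IV-like cells held 10.0 ± 0.731 of Foxp2 and overlapped both neighbors.

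**Figure D1:**
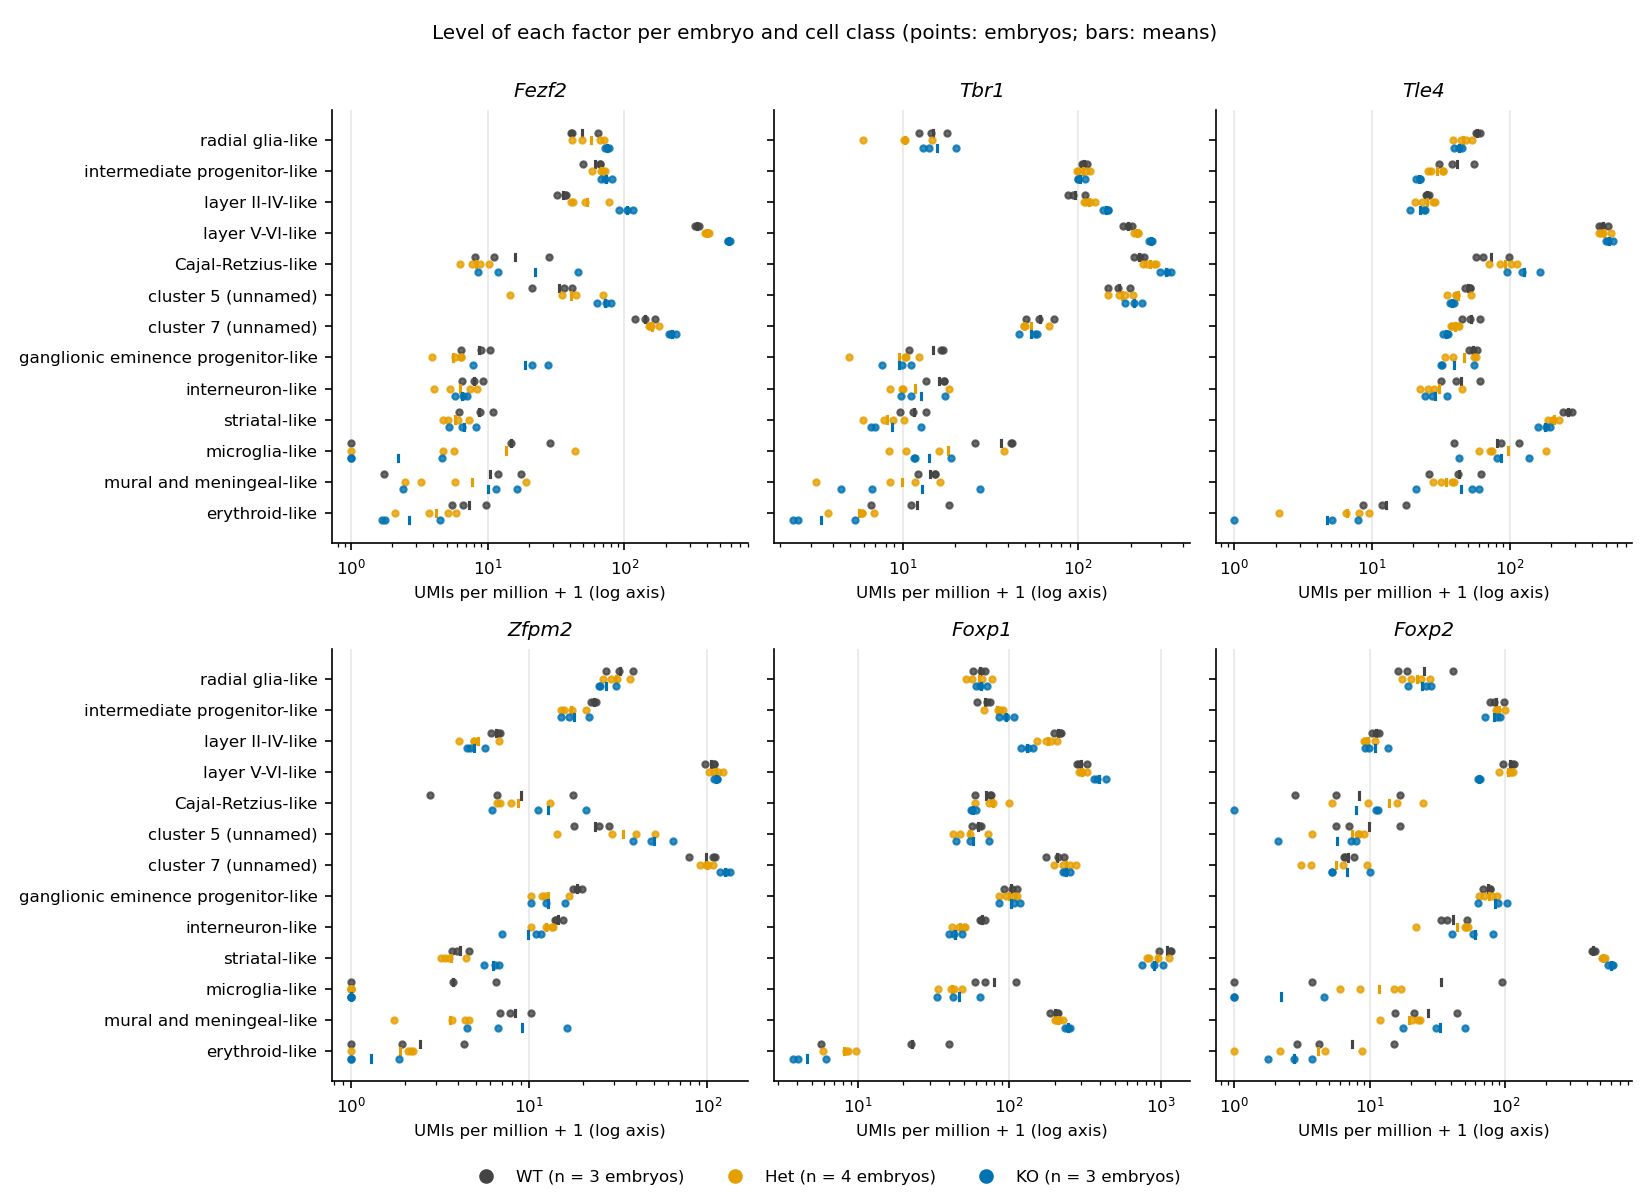
Level of each factor (UMIs per 1000000 UMIs of the class plus 1, horizontal log axis) in the cell classes, with 1 point per embryo colored by genotype and a bar at the genotype mean. In WT embryos Fezf2, Tle4 and Zfpm2 peak in layer V-VI-like cells, Tbr1 in Cajal-Retzius-like cells, and Foxp1 and Foxp2 in striatal-like cells.

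Genes with patterns most like each factor over the 25 clusters (Pearson's r of log2(CPM + 1) of WT means, given as a description over clusters of the same libraries) were Lix1 (0.872), Mmd2 (0.842) and Emx1 (0.809) for Fezf2, and Cacna2d1 (0.902), Rspo3 (0.887) and Wnt7b (0.882) for Tbr1. For Tle4 they were Kif26a (0.809), Syt6 (0.725) and Hs3st4 (0.714). Zfpm2 came closest to Fezf2 itself (0.782), then Slc1a2 (0.731) and Lix1 (0.724). For Foxp1 they were Gucy1b1 (0.810), Gm20696 (0.806) and Nradd (0.791), and for Foxp2 Pbx3 (0.814), Meis1 (0.773) and 2700033N17Rik (0.769). Among the factors, Fezf2 and Tbr1 had an r of 0.707, and Foxp1 and Foxp2 of 0.618.

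In layer II-IV-like cells, 2 deep-layer factors rose and 1 forkhead factor fell in KO. These were 20010 cells in clusters 0, 1 and 10 (7236 in WT, 7571 in Het and 5203 in KO). Fezf2 had 36.0, 35.7 and 30.2 CPM in the WT embryos, 50.8, 41.8, 40.2 and 76.2 in Het, and 117, 92.0 and 102 in KO. Every Het embryo lay above every WT embryo, and every KO embryo above every Het embryo. The log2 fold change was 1.61 ± 0.18 (SE) in KO vs WT (adjusted p = 1.08e-05, and 1.23 within the prefix) and 0.62 ± 0.17 in Het vs WT (adjusted p = 0.0355). Het replicate 4 was the highest of its group and carries the WT prefix, and without it the Het change was 0.38. The Het call was lost without any one of the WT embryos, without Het replicate 1 or KO replicate 3, at clustering resolution 0.8 (0.44), with only WT and Het fitted (0.62) and with DESeq2 (0.62).

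Tbr1 in the same cells had 91.2, 108 and 84.7 CPM in WT, 111, 118, 125 and 107 in Het, and 142, 149 and 146 in KO. KO embryos stood apart from all others, while Het and WT overlapped through WT replicate 2. The change was 0.62 ± 0.08 in KO (adjusted p = 1.82e-05, and 0.31 within the prefix) and 0.29 ± 0.07 in Het (adjusted p = 0.0221). The Het call was lost without WT replicate 1 (0.26) or 3 (0.21), without Het replicate 2 (0.28) or 3 (0.25), and with the prefix as a covariate (0.18).

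Foxp1 moved the other way in these cells. It had 212, 216 and 194 CPM in WT, 152, 176, 206 and 187 in Het, and 135, 119.9 and 141 in KO. All KO embryos lay below all others, and Het spanned from below WT into its range. The change was −0.65 ± 0.09 in KO (adjusted p = 5.89e-05, and −0.42 within the prefix) and −0.20 in Het (adjusted p = 0.127). The make-up of the class moved with it. Cluster 0, where Foxp1 was lowest and not called, went from 38.8% of the class in WT to 54.0% in KO, and cluster 10, where it was highest and called lower, from 12.01% to 6.44%. Foxp1 was found in 25.3% of cluster 0 cells in WT and 26.0% in KO, 45.0% and 42.5% of cluster 1 cells, and 71.7% and 59.2% of cluster 10 cells, at the equal depth described with the shares of cells. The part of the make-up in the change of the class was not tested.

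The other 3 factors did not pass the edgeR test in either comparison. Tle4 had 23.8, 24.5 and 23.0 CPM in WT, 26.8, 19.6, 22.1 and 27.6 in Het, and 23.5, 18.2 and 23.2 in KO (−0.13 ± 0.11 in KO, adjusted p = 0.366, and −0.07 within the prefix). Foxp2 was low throughout, with 9.14, 10.6 and 9.89 in WT, 8.44, 8.33, 8.12 and 9.98 in Het, and 9.10, 8.30 and 12.5 in KO (0.01 in KO, adjusted p = 0.945, and 0.27 within the prefix). Zfpm2 had 5.01, 5.67 and 5.69 in WT, 3.95, 3.97, 3.07 and 5.80 in Het, and 3.77, 3.49 and 4.62 in KO. KO lay below WT for Zfpm2 with −0.46 ± 0.18 (adjusted p = 0.0527), and KO lay slightly above Het within the prefix (0.12). This change depended on the setting. It was called by DESeq2 (−0.45), without the filter on low counts, with only WT and KO fitted, with the replicate block, with doublets removed (−0.60), without integration (−0.94), and without Het replicate 3 (−0.45), Het replicate 4 (−0.45) or KO replicate 3 (−0.58), and it turned to 0.20 with the prefix as a covariate.

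Of all genes tested in layer II-IV-like cells, 30.2% were called in KO vs WT and 6.61% in Het vs WT, against 3 and 2 of the 6 factors. The median log2 fold change of the 6 was −0.06 in KO, beside −0.01 over all genes.

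Fezf2, Tbr1 and Foxp1 rose and Foxp2 fell in KO in layer V-VI-like cells. These 6850 cells (2117 in WT, 2805 in Het and 1928 in KO) were 1 cluster with Hs3st4, Tle4, Nts and Fezf2 among its leading genes. Fezf2 had 333, 326 and 339 CPM in WT, 419, 389, 391 and 410.5 in Het, and 599, 589 and 589.8 in KO. The 3 genotypes stood apart in the order of the number of mutant alleles, and embryos of a genotype lay close together. The change was 0.83 ± 0.05 in KO (adjusted p = 7.34e-09, and 0.57 within the prefix) and 0.28 ± 0.05 in Het (adjusted p = 0.00581), where the call was lost with at most 5% mitochondrial UMIs (0.22) and without integration of the embryos (0.26). Without integration the class also took in a cluster of 3082 cells led by Crym and Grp, so partly other cells were tested.

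Tbr1 had 198, 192 and 174 CPM in WT, 217, 207, 218 and 219.96 in Het, and 276, 267 and 255 in KO. The genotypes again did not overlap. The change was 0.50 ± 0.05 in KO (adjusted p = 3.31e-06, and 0.31 within the prefix), and 0.20 ± 0.05 in Het, where the adjusted p of 0.0462 passed but the size stayed under the threshold of 0.25.

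The forkhead factors parted here. Foxp1 had 271, 285 and 317 CPM in WT, 292, 326, 302 and 295 in Het, and 394, 371 and 434 in KO, and only KO stood apart (0.46 ± 0.07, adjusted p = 0.000106, and 0.38 within the prefix). Foxp2 had 108, 113 and 92.5 in WT, 107, 88.9, 111 and 108 in Het, and 67.4, 63.8 and 62.3 in KO. All KO embryos were below all others, and Het overlapped WT (−0.70 ± 0.08 in KO, adjusted p = 1.35e-05, and −0.67 within the prefix).

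Tle4 and Zfpm2 did not pass the test in layer V-VI-like cells. Tle4 had 457, 516 and 433 CPM in WT, 463, 443, 476 and 546 in Het, and 591, 510.4 and 519.6 in KO (0.20 ± 0.08, adjusted p = 0.0666, and 0.23 within the prefix, with an adjusted p of 0.0137 and a size under the threshold). Zfpm2 lay between 94.9 and 105 in the WT embryos, between 100.5 and 123 in Het and between 111 and 118 in KO (0.17 ± 0.07, adjusted p = 0.061, and 0.04 within the prefix). Among all genes tested in layer V-VI-like cells, 25.5% were called in KO and 2.24% in Het, beside 4 and 1 of the 6 factors, and the median change in KO was 0.33 for the 6 and 0.00 for all genes.

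**Figure D2:**
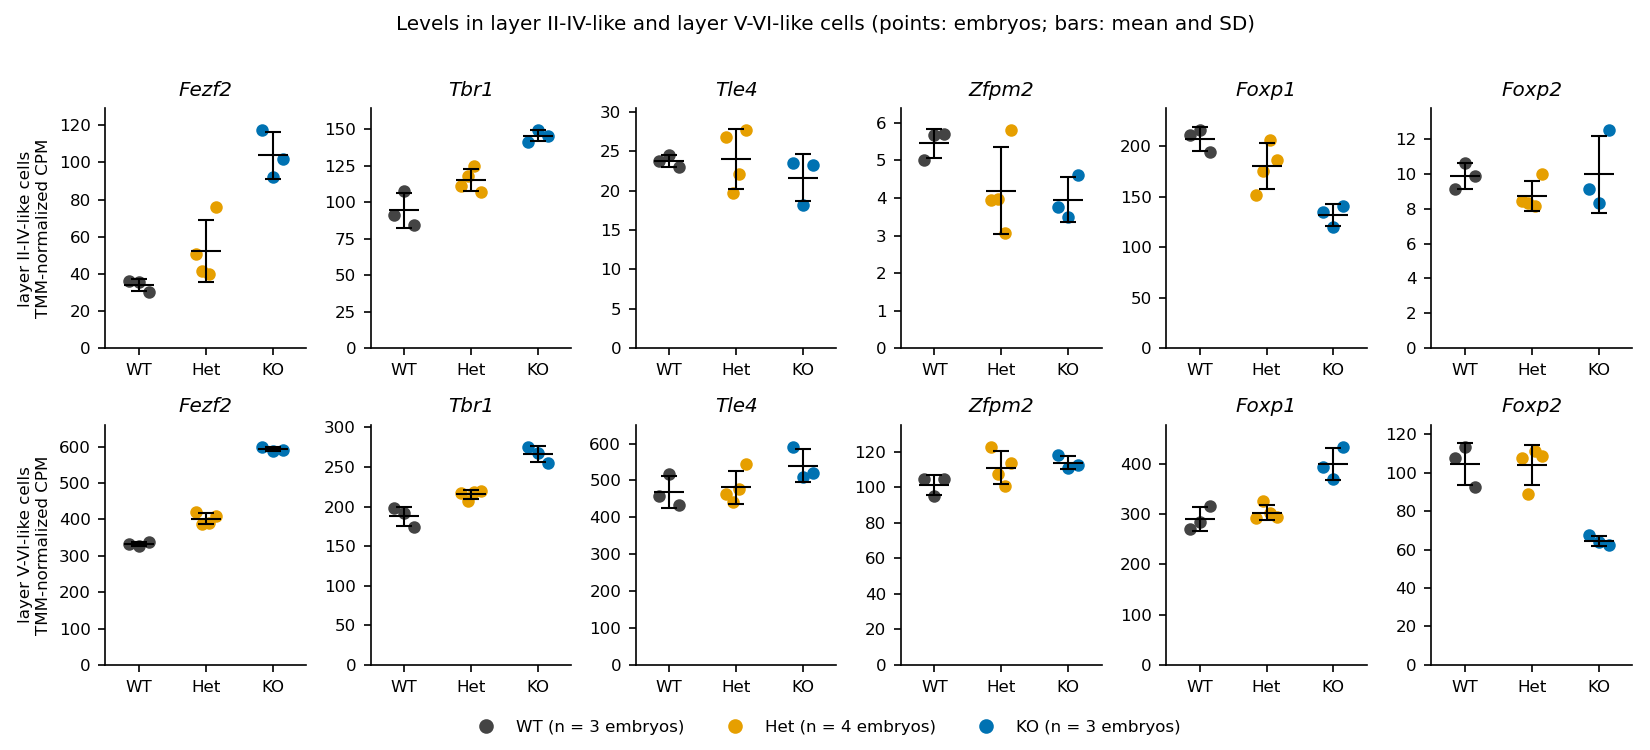
Normalized level (CPM, vertical axis from 0) of each factor in layer II-IV-like and layer V-VI-like cells, with 1 point per embryo and bars at the mean and SD of the genotype. Fezf2 and Tbr1 are higher in KO in both classes, Foxp1 is lower in layer II-IV-like and higher in layer V-VI-like KO cells, and Foxp2 is lower in layer V-VI-like KO cells.

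Marker genes of the layers moved in both classes, and their part in these results was not tested. In layer II-IV-like cells the summed 11 layer II-IV markers had 1580 ± 74.2 CPM in WT, 1423 ± 43.5 in Het and 1250 ± 41.9 in KO, with embryos from 1496 to 1635, 1366 to 1471 and 1208 to 1292. Of the 11, Lhx2 and Unc5d were called higher in KO and 7 lower. Layer V markers (6 genes) summed to between 133 and 146 in WT embryos and between 142 and 163 in KO embryos, and layer VI markers (6 genes) to between 75.5 and 92.8 in WT and between 119.8 and 145 in KO. Subplate markers (7 genes, with at most 1 at 0 in an embryo) summed to 51.8 ± 6.36 in WT, 75.2 ± 8.90 in Het and 68.6 ± 2.09 in KO, and all 4 that were tested (St18, Tmem163, Nr4a2 and Nxph4) were called higher in KO, with a median of 0.79. Layer VI markers did not move together. In KO, Rprm was called higher (68.0 to 122) and Thsd7b, Sema3e, Hs3st4 (4.25 to 1.06) and Nxph3 lower, among 6 tested. Layer V markers in layer V-VI-like cells summed to 476 ± 29.7 in WT and 311 ± 21.6 in KO, the layer VI markers to 939 ± 24.9 and 1351 ± 64.4, and the subplate markers (7 genes) to 223 ± 43.6 and 106 ± 3.27. There too the layer VI markers were split in KO, with Rprm and Nfe2l3 called higher and Thsd7b, Sema3e and Hs3st4 lower of 6 tested, and a median log2 change of −0.39 under a sum that was higher. The layer II-IV markers in these cells summed to 516 in WT and 417 in KO, with Lhx2 and Mdga1 called higher and 7 of 11 lower. Of the other marker lists there, 4 of 6 layer V markers were called lower and none higher, and of 5 subplate markers tested Nxph4 was called higher and Nr4a2 lower. Within the prefix, KO minus Het was 44.6 CPM for the layer VI sum in layer II-IV-like cells and 417 in layer V-VI-like cells, −128 for the layer V sum and −112 for the subplate sum in the latter. The upper class had −174 for its layer II-IV sum and 10.3 for the layer V sum, and its subplate sum turned to −7.03, with Nr4a2 called lower (−0.30) and St18 (0.97) and Nxph4 (0.69) called higher on the log2 scale. The layer II-IV sum in layer V-VI-like cells differed by −0.39. Of these sums no marker of layer II-IV, V or VI was at 0 in any embryo.

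Transcripts of Fezf2 and Tbr1 were found in more layer II-IV-like cells of KO embryos. Shares are of cells with at least 1 UMI after each cell was thinned to 5000 UMIs, since deeper cells show more genes. Cells with fewer UMIs were left out, 118 in WT, 58 in Het and 30 in KO. Fezf2 was found in 12.1%, 11.5% and 11.1% of cells in the WT embryos, 15.2%, 13.2%, 13.7% and 21.1% in Het, and 29.0%, 23.8% and 26.8% in KO. Neither mutant group overlapped WT. Unthinned means were 26.0% in WT, 33.0% in Het and 50.2% in KO, at a median of 14520 to 19308, 16424 to 19121 and 17474 to 20063 UMIs per cell and embryo. For Tbr1 the thinned shares were 33.5%, 37.5% and 31.8% in WT, 38.2%, 40.2%, 40.4% and 37.3% in Het, and 45.8%, 47.6% and 48.5% in KO. KO stood apart from Het and WT, which overlapped. Unthinned means were 63.3%, 70.6% and 81.6%.

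The exact permutation tests over embryos could not pass 0.05 in KO vs WT, where the smallest p of 20 splits is 0.1, and that p was reached by Fezf2, Tbr1, Zfpm2 and Foxp1 (adjusted p = 0.15 each over the 6 factors, two-sided). It is reached whenever KO and WT embryos do not overlap. How many of all genes part in this way was not counted, so nothing particular to the factors is read from it. In Het vs WT, with 35 splits, Fezf2 had a difference of 4.21 percentage points, or 2.44 without Het replicate 4 (with it, exact permutation p = 0.0857, adjusted p = 0.229), and Tbr1 of 4.77 (exact permutation p = 0.0571, adjusted p = 0.229). Within the prefix, KO exceeded Het by 12.5 points for Fezf2 and 7.76 for Tbr1. Foxp1 was found in 40.6% ± 2.04 (SD, n = 3) of cells in WT, 38.1% ± 2.97 (n = 4) in Het and 34.7% ± 2.23 (n = 3) in KO. Within the prefix, KO and Het differed by −2.11 points for Foxp1, and their embryos overlapped. Without thinning, the Foxp1 share was 64.6% in both WT and KO, so that its order at equal depth was not seen in the raw shares. Zfpm2 was found in 2.31% ± 0.24 of cells in WT, 1.82% ± 0.43 in Het and 1.56% ± 0.11 in KO, and within the prefix KO and Het differed by −0.06 points. For Tle4 (11.1%, 11.4% and 10.5%) and Foxp2 (3.99%, 3.59% and 4.19%) the genotypes overlapped.

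Erythroid-like cells, red blood cell precursors, and microglia-like cells, the immune cells of the brain, should lack Fezf2, Tbr1 and Foxp2 and serve as background classes. Endothelial-like cells should lack Fezf2 too, but their WT level of it, given above, overlapped that of layer II-IV-like cells. Of them 15.9% were marked as doublets, and their share of cells with Fezf2 was not measured. Fezf2 in WT layer II-IV-like cells is thus not told apart from every such class. After thinning, Fezf2 was found in 2.04% of erythroid-like cells in WT, 0.92% in Het and 0.56% in KO, and Tbr1 in 3.49%, 2.22% and 1.39%. Thinning left out 227 of 617 erythroid-like cells in WT, 171 of 607 in Het and 86 of 336 in KO, and the unthinned shares with Fezf2 were 3.41%, 2.81% and 1.86%, at a median of 6364 to 8941 UMIs in WT and 9225.5 to 11800.0 in KO. Foxp2 was found in 2.05%, 1.32% and 0.94% of erythroid-like cells, and all other factors there lay within 0.08% to 4.77%. Of microglia-like cells 19.6% were marked as doublets, which limits their use as background. Only 45 microglia-like cells in WT, 46 in Het and 32 in KO reached the thinning depth, at a median of 2287 to 9231 UMIs before thinning over all of them. Among these, Fezf2 was found in 2.84%, 3.39% and 0.69%, Tbr1 in 12.06%, 6.10% and 2.94%, and Foxp2 in 4.55% ± 7.88, 7.94% ± 1.55 and 0.78% ± 1.35. The Foxp2 share of layer II-IV-like cells lay above the erythroid-like share in every genotype, but below the microglia-like share, which rests on few cells, in WT and Het. It was thus not told apart from background in WT and Het, and no expression of Foxp2 in layer II-IV-like cells is read from it there. Interneuron-like cells, of which 1303 of 3806 in WT, 868 of 4173 in Het and 495 of 2588 in KO were left out, had Fezf2 in 2.56%, 1.96% and 2.49% of cells and Zfpm2 in 4.54%, 4.29% and 3.49%, and the latter exceeded the Zfpm2 share in layer II-IV-like cells. Of layer V-VI-like cells, Fezf2 was found in 67.2%, 73.6% and 87.5% in WT, Het and KO, Tbr1 in 56.3%, 60.8% and 67.2%, Foxp1 in 62.3%, 64.3% and 76.8%, and Foxp2 in 33.3%, 32.7% and 22.2%. Tle4 was found in 65.3%, 65.3% and 65.1% and Zfpm2 in 36.9%, 37.6% and 36.6%, with overlapping genotypes.

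**Figure D3:**
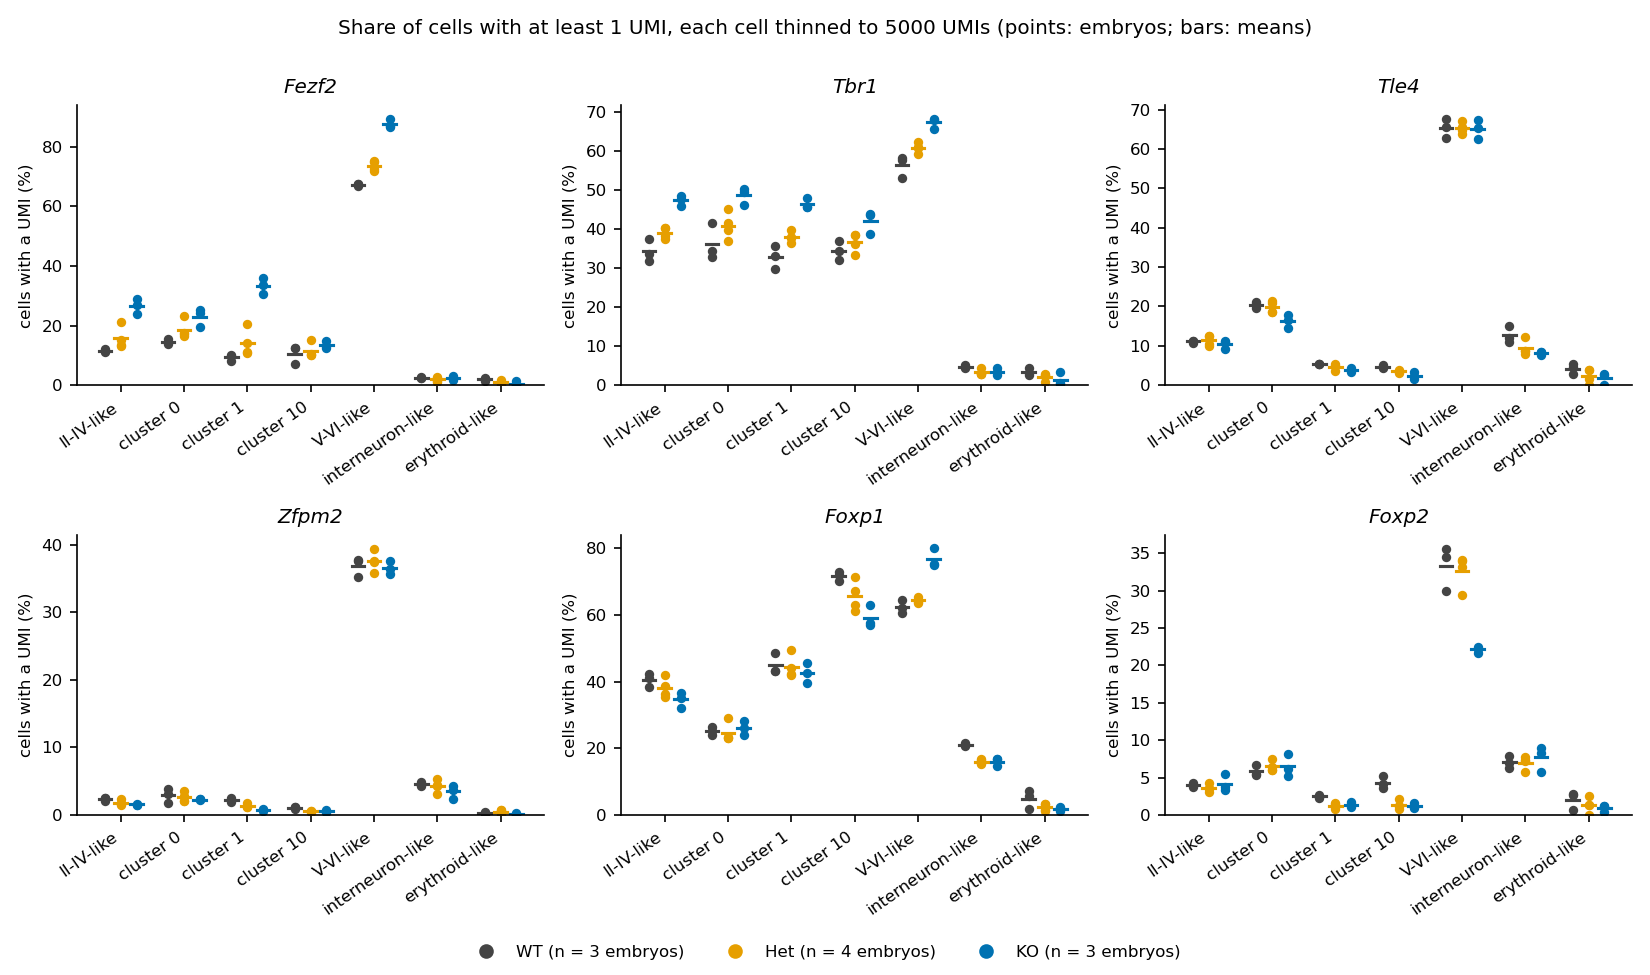
Share of cells (percent, vertical axis) with at least 1 UMI of each factor after thinning to 5000 UMIs, 1 point per embryo and a bar at the genotype mean, in layer II-IV-like cells and their clusters 0, 1 and 10, layer V-VI-like, interneuron-like and erythroid-like cells. In layer II-IV-like cells Fezf2 was found in 11.1% to 12.1% of cells of WT embryos and 23.8% to 29.0% of KO embryos, while the Fezf2 means in erythroid-like cells lay at 2.04% or below. Endothelial-like cells, whose WT level of Fezf2 overlapped that of layer II-IV-like cells, are not shown.

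Fezf2 rose in KO in each of the 3 clusters of layer II-IV-like cells, by amounts that were not compared in a test. The make-up of the class also differed between genotypes, with cluster 1 the largest part in WT (49.2% ± 1.70 of the class) and Het cells split between clusters 0 and 1, and cluster 0 the largest in KO (54.0% ± 3.31), while cluster 10 went from 12.01% ± 1.74 in WT to 6.44% ± 0.80. Cluster 0 is led by Unc5d and Pdzrn3, cluster 1 by Cdh12, Hs6st2 and Ntf3, and cluster 10 by Inhba and Kcnip4. Among the 10 leading genes, cluster 0 also had the intermediate progenitor marker Insm1, and cluster 10 the subplate marker Nr4a2. In cluster 1, Fezf2 had 35.6, 33.2 and 25.7 CPM in WT, 61.0, 40.3, 39.1 and 92.1 in Het, and 166, 134 and 152 in KO. The genotypes did not overlap. Its change was 2.25 ± 0.24 in KO (adjusted p = 3.29e-06, and 1.69 within the prefix) and 0.89 ± 0.23 in Het (adjusted p = 0.0254), where Het replicate 4 was again the highest (0.56 without it). This Het call was lost without any one WT embryo, without Het replicate 1 and under DESeq2. The share of cells with Fezf2 went from 9.37% to 33.4% in this cluster.

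In cluster 0 Fezf2 had 38.4, 41.3 and 41.9 CPM in WT, 47.0, 49.2, 48.7 and 69.5 in Het, and 80.4, 55.0 and 70.4 in KO (0.76 ± 0.14 in KO, adjusted p = 0.00053, and 0.51 within the prefix), and its share of cells went from 14.6% to 23.0%. In cluster 10 it went from 31.7, 34.0 and 21.4 in WT to 44.8, 40.1 and 37.6 in KO (0.47, adjusted p = 0.0359, and 0.51 within the prefix), and the call was lost without any one KO embryo and without WT replicate 1 or 3 (0.31 without the latter). The share with Fezf2 there went from 10.6% to 13.6%. Tbr1 was called higher in KO in all 3 clusters, by 0.60, 0.67 and 0.35 in clusters 0, 1 and 10 (0.26, 0.33 and 0.20 within the prefix, of which the last was not called), and in Het in cluster 1 (0.32), where the call was lost without WT replicate 3 (0.24).

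Foxp1 was higher in clusters 1 and 10 than in cluster 0 in every embryo, and it fell in KO in the former. In cluster 10 it had 449, 514 and 490.4 CPM in WT, 358, 373, 486 and 384 in Het, and 279, 247 and 311 in KO (−0.79 ± 0.10, adjusted p = 6.63e-06, and −0.54 within the prefix). In cluster 1 it went from 201 to 160 (−0.34, and −0.20 within the prefix, not called), and the call was lost without WT replicate 1 (−0.23). In cluster 0 the means were 67.2 and 73.8 and the change of 0.14 was not called.

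Zfpm2, Tle4 and Foxp2 were called lower in KO in some of these clusters. Zfpm2 fell in cluster 1, where WT had 5.90, 4.53 and 5.46 CPM, Het 3.66, 2.94, 3.11 and 4.38, and KO 1.78, 1.85 and 2.13. No embryo of a mutant group reached WT (−1.47 ± 0.19 in KO, and −0.75 within the prefix; −0.57 ± 0.15 in Het). Tle4 was called lower in clusters 0 (50.7 to 39.1), 1 (12.2 to 8.23) and 10 (12.4 to 5.99), and within the prefix none was called (−0.24, −0.29 and −0.53). In clusters 1 and 10 the WT level of Tle4 was near that of erythroid-like cells, the class with the least of it. Zfpm2 in cluster 1 was likewise as low as in the classes with the least Zfpm2. Foxp2 was called lower in cluster 1 (7.06 to 4.18), where KO and Het within the prefix differed by 0.09 in the opposite direction, and in cluster 10 (11.7 to 3.38), where the change was not called within the prefix (−0.81) or by DESeq2. These Foxp2 levels belong to a class whose share of cells with Foxp2 was not told apart from background in WT and Het. Calls made up 25.6%, 28.5% and 17.4% of all genes tested in clusters 0, 1 and 10 in KO, beside 3, 6 and 5 of the 6 factors, and 4.95%, 5.9% and 2.16% in Het, beside 0, 3 and 0. In Het, Fezf2 and Tbr1 in cluster 0 and Foxp1, Foxp2 and Tle4 in cluster 10 had an unadjusted edgeR p under 0.05, and DESeq2 called none in either.

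A separate clustering at resolution 0.8 gave 3 clusters named layer V-VI-like. They are not a division of the class above, which held all 3044 cells of cluster 4, 82.1% of cluster 8 and 85.8% of cluster 18. Cluster 4, led by Hs3st4, Tle4, Nxph3 and Nfe2l3, had 3044 cells and is written as layer VI-like. Cluster 8, led by Npy, Fezf2 and Ldb2, had 2483 cells and scored higher for layer V than for layer VI markers, and cluster 18, led by Nts and Nr4a2, had 1815. Among these 3 clusters, cluster 4 made up 40.3% ± 3.65 of cells in WT, 41.0% ± 1.02 in Het and 42.8% ± 3.03 in KO, differences within the spread.

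In cluster 4, 3 factors rose and 1 fell in KO. Fezf2 had 249.5, 289 and 254 CPM in WT, 339, 330.5, 269 and 357 in Het, and 614, 585 and 618 in KO, and KO stood apart from both other groups, which overlapped (1.20 ± 0.09 in KO, adjusted p = 8.52e-10, and 0.96 within the prefix). Foxp1 had 143, 169 and 174 in WT, 195, 173, 166 and 190.5 in Het, and 351, 313 and 356 in KO (1.07 ± 0.08, adjusted p = 1.35e-09, and 0.94 within the prefix). Foxp2 had 224, 234 and 234 in WT, 227, 206, 249.99 and 214 in Het, and 119, 119 and 120.3 in KO (−0.95 ± 0.07, adjusted p = 1.09e-09, and −0.93 within the prefix). For these 3 factors the Het embryos overlapped WT and the KO embryos stood apart. Tbr1 had 299.5, 283 and 286 in WT, 335, 324, 342 and 320.03 in Het, and 391, 376 and 387 in KO (0.41 ± 0.06, adjusted p = 2.63e-05, and 0.21 within the prefix, not called). Tle4 (858 to 939 CPM) and Zfpm2 (171 to 183) were not called.

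In cluster 8, Fezf2 had 332, 308 and 320.4 CPM in WT, 442, 369, 433 and 452 in Het, and 621, 621 and 594 in KO. Here Het also stood apart from WT (0.41 ± 0.07, adjusted p = 0.00308; KO 0.94 ± 0.07, 0.56 within the prefix). Tbr1 went from 93.9 to 138 in KO (0.55 ± 0.08, and 0.33 within the prefix). Foxp1 (352 to 425, 0.27) and Foxp2 (42.6 to 31.6, −0.43 ± 0.13) were called in KO, but not within the prefix (0.21 and −0.37). In cluster 18 no factor was called. Fezf2 went from 363 to 424 (0.22 ± 0.08, adjusted p = 0.077) and Tbr1 from 186 to 226 (0.28, adjusted p = 0.121), and with Zfpm2 these had an unadjusted edgeR p under 0.05. The background of called genes in KO was 22.6%, 21.7% and 13.8% in clusters 4, 8 and 18, beside 4, 4 and 0 of the 6 factors, and in Het 1.71%, 1.49% and 0.0171%, beside 0, 1 and 0. In Het, Fezf2, Tbr1, Foxp1 and Zfpm2 in cluster 4 and no factor in cluster 18 had an unadjusted edgeR p under 0.05, and DESeq2 called Fezf2 in cluster 4 and none in cluster 18, where 1 factor had no adjusted p.

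**Figure D4:**
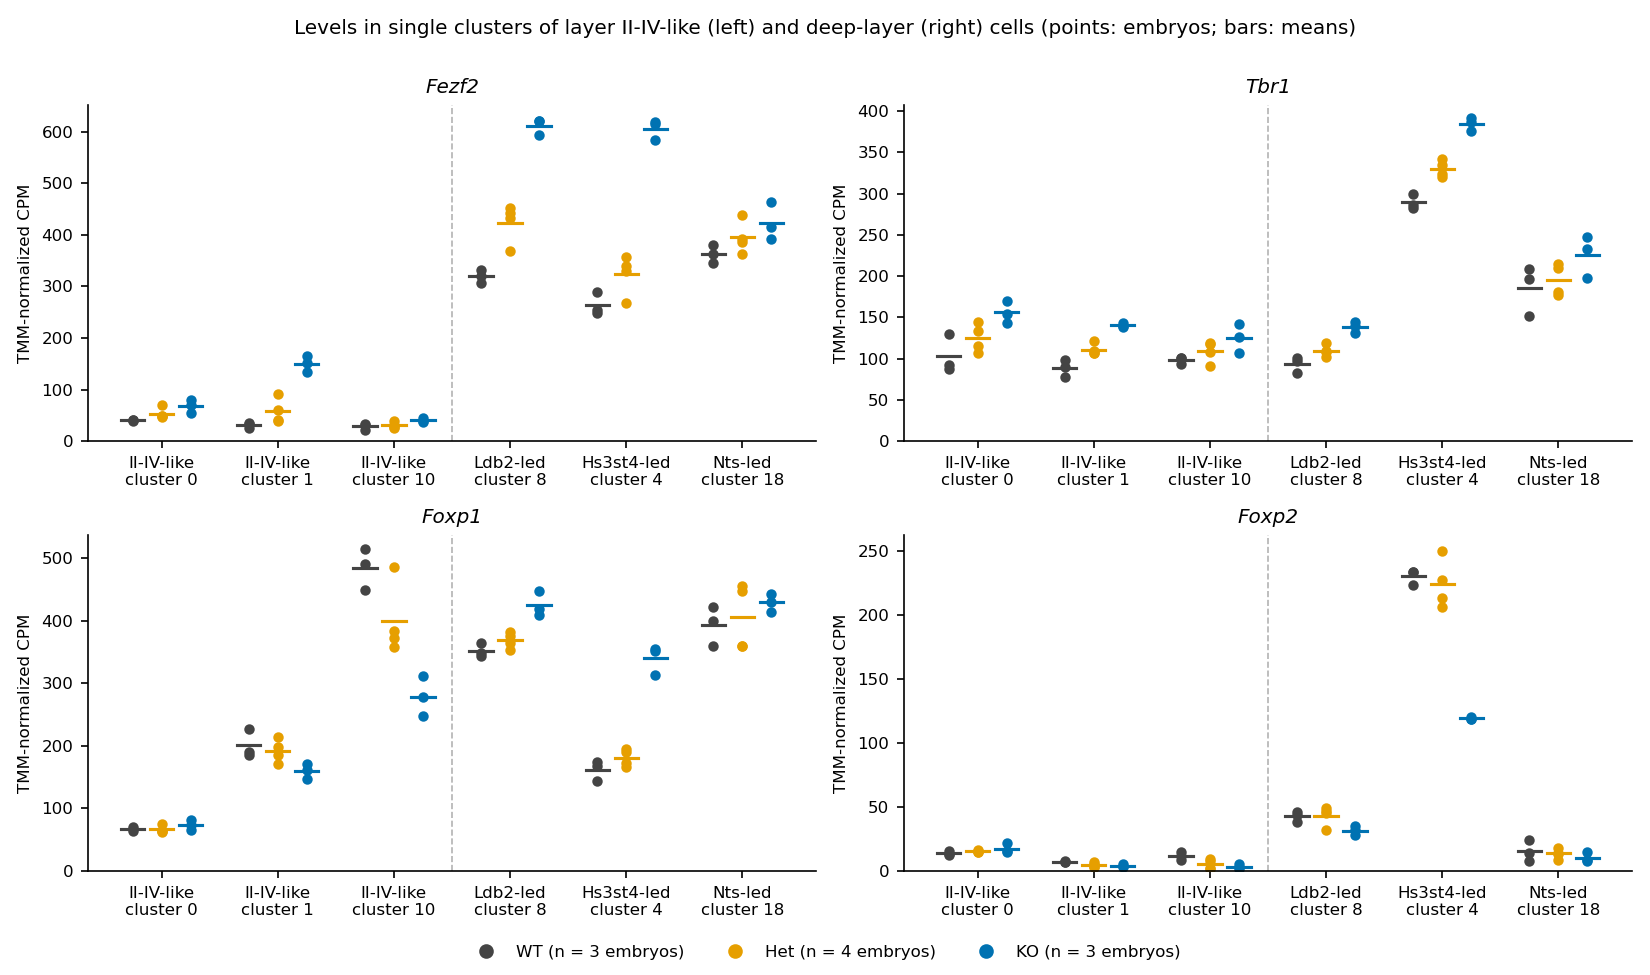
Normalized level (CPM, vertical axis) of Fezf2, Tbr1, Foxp1 and Foxp2 per embryo in the layer II-IV-like clusters 0, 1 and 10 and in the layer V-VI-like clusters 8, 4 and 18 of resolution 0.8, named on the axis by a leading gene, with a bar at the genotype mean. In cluster 4, KO embryos hold 585 to 618 CPM of Fezf2 against 249.5 to 289 in WT, and 119 to 120.3 of Foxp2 against 224 to 234.

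Deep-layer cells that held transcripts of 2 factors at once became more frequent, and the shares of cells with the single genes rose too. After thinning to 5000 UMIs, Fezf2 and Tbr1 were found together in 36.4% ± 2.30 (SD, n = 3) of layer V-VI-like cells in WT, 43.5% ± 1.69 (n = 4) in Het and 58.4% ± 0.51 (n = 3) in KO. The product of both single shares was 37.8%, 44.8% and 58.8%, so the cells with both were close to what the single shares give if they fall independently. Fezf2 with Bcl11b was found in 61.4% ± 0.46, 68.1% ± 2.23 and 84.6% ± 1.39, and Tbr1 with Bcl11b in 51.4% ± 2.84, 56.7% ± 1.71 and 65.5% ± 1.29. In Het vs WT the exact two-sided permutation p was 0.0286, the smallest possible, for Fezf2 with Tbr1 and with Bcl11b (adjusted p = 0.0429 over the 3 pairs) and 0.0571 for Tbr1 with Bcl11b (exact permutation, adjusted p = 0.0571). In KO vs WT all 3 pairs were at the smallest p of 0.1 that 3 against 3 embryos allow. Each of these smallest p-values shows only that embryos of the compared genotypes did not overlap. How many other pairs of genes part so was not counted, so nothing particular to these pairs is read from it. Both Het calls were lost without integration of the embryos (5.48 and 6.70 points, adjusted p = 0.171 each by the exact permutation test), where the class also held the cluster led by Crym and Grp. Within the prefix, KO exceeded Het by 15.5 points for Fezf2 with Tbr1, 17.2 for Fezf2 with Bcl11b and 9.48 for Tbr1 with Bcl11b. The pairs share genes and cells, so the 3 tests are not independent.

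Cluster 4 of resolution 0.8 had the highest share with Fezf2 and Tbr1, at 44.3% in WT, 53.6% in Het and 71.2% in KO. Cluster 8 had 24.7%, 31.2% and 42.3%, and cluster 18 had 35.1%, 39.2% and 47.9%. KO lay apart from WT in each of them, and Het in clusters 4 and 8.

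**Figure D5:**
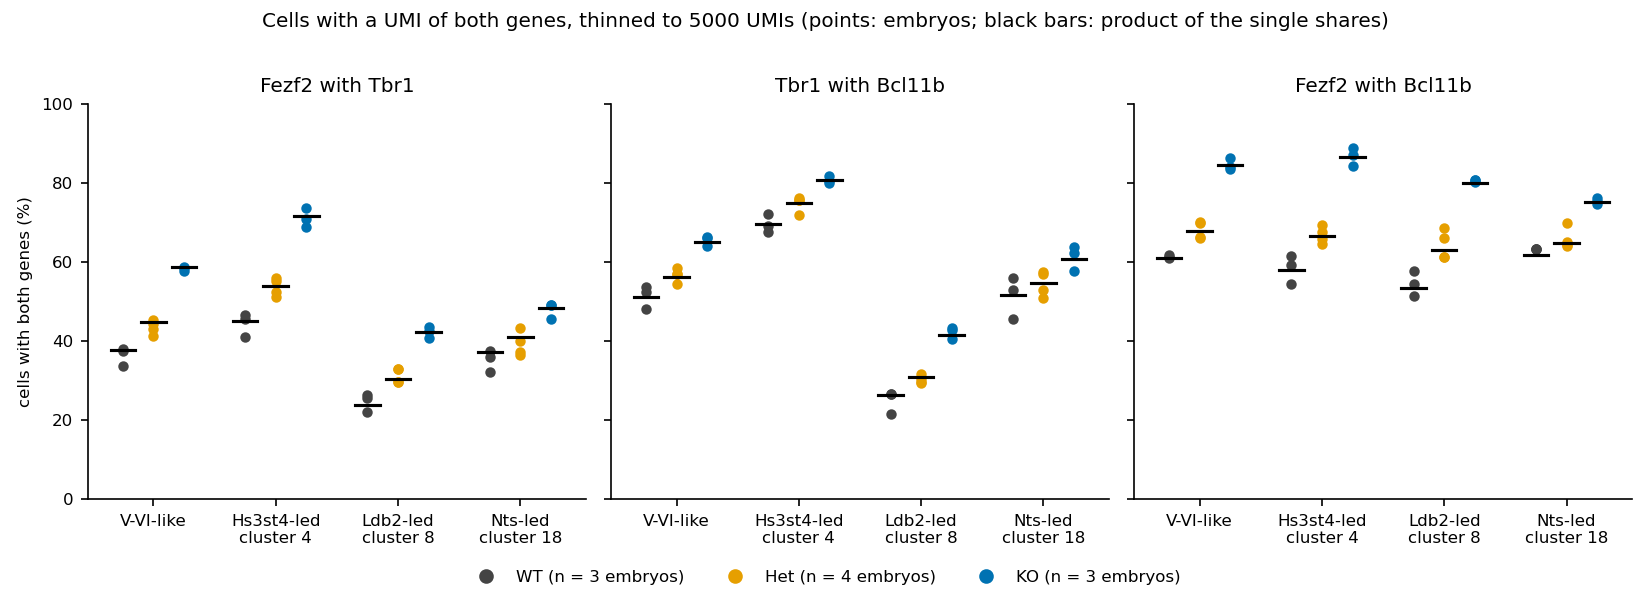
Share of cells (percent, vertical axis) with UMIs of both genes of a pair after thinning to 5000 UMIs, in layer V-VI-like cells and in clusters 4, 8 and 18 of resolution 0.8, with 1 point per embryo and a black bar at the product of the single shares. Fezf2 with Tbr1 in layer V-VI-like cells rises from a mean of 36.4% in WT to 43.5% in Het and 58.4% in KO, and the product follows it closely.

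Whether a factor changed differently in the upper and deep class was compared per embryo, as the log2 level in layer II-IV-like cells minus that in layer V-VI-like cells. From WT to KO this difference rose by 0.80 for Fezf2 and 0.71 for Foxp2, and it fell by 1.08 for Foxp1, 0.61 for Zfpm2 and 0.32 for Tle4. Each of these had the smallest exact permutation p of 0.1 (adjusted p = 0.12), which cannot pass 0.05. That p means only that KO and WT embryos did not overlap, and the share of all genes that part so was not counted. For Tbr1 it rose by 0.15 (exact permutation p = 0.2). Within the prefix the values were 0.69 for Fezf2, 0.94 for Foxp2 and −0.77 for Foxp1, and Zfpm2 turned to 0.10. The upper-class level of Foxp2 in this difference is the one whose share of cells was not told apart from background in WT and Het. With cluster 1 alone as the upper class, the KO difference of Foxp2 turned to −0.087. In Het vs WT none passed, with adjusted p-values of 0.429 to 0.743 by the exact permutation test.

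Outside the cortical layers, the striatal-like cells held the most Foxp1 and Foxp2, and there Foxp2 rose. It had 428, 454 and 432 CPM in WT, 534, 532, 551 and 512 in Het, and 621, 574 and 616 in KO. All 3 genotypes stood apart (0.46 ± 0.06 in KO, adjusted p = 5.18e-05, and 0.16 within the prefix, not called; 0.28 ± 0.05 in Het, adjusted p = 0.0133). The Het call did not hold without WT replicate 1 (0.27) or 3 (0.27) or Het replicate 3 (0.26). Foxp2 thus rose in striatal-like and fell in layer V-VI-like cells. Tle4 went down in striatal-like cells, from 241, 262 and 281 in WT to 209.6, 193, 210.1 and 229 in Het and 201, 162 and 181 in KO (−0.53 ± 0.08 in KO, adjusted p = 0.000312, and −0.18 within the prefix, not called). The Het change of −0.31 (adjusted p = 0.0362) was lost without any one of 7 embryos, WT replicates 1 to 3, Het replicates 1 to 3 and KO replicate 3. Zfpm2 was low (3.03 to 5.30) and called higher in KO (0.81, adjusted p = 0.0346), a call that did not hold within the prefix (0.89), under DESeq2 (0.81) or without WT replicate 1 or 3 or KO replicate 1 or 2. Foxp1 went from a mean of 1083 to 908 and was not called (−0.26, adjusted p = 0.144). Of all genes tested, 16.7% were called in KO and 2.28% in Het, beside 3 and 2 of the 6 factors.

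Tle4 was also lower in progenitors. In intermediate progenitor-like cells Tle4 had 53.2, 36.5 and 29.1 CPM in WT, 26.1, 24.7, 31.5 and 32.0 in Het, and 22.0, 20.4 and 21.5 in KO (−0.90 ± 0.17, adjusted p = 0.00158, and −0.35 within the prefix, not called). Foxp1 rose there, from 72.7, 59.7 and 69.8 in WT to 96.3, 86.7 and 107 in KO, with 67.5 to 90.5 in Het (0.53 ± 0.11, adjusted p = 0.00386, and 0.28 within the prefix, not called). The cluster called radial glia-like, after the stem cells of the cortex, scored higher for oligodendrocyte precursor markers (2.71) than for radial glia markers (2.51), and took its name because more of the latter were among its leading genes. Fezf2 had 40.3, 39.2 and 61.1 there in WT, 70.2, 48.7, 40.4 and 64.4 in Het, and 75.5, 79.2 and 71.3 in KO. KO embryos lay above the others, and Het and WT overlapped (0.68 ± 0.17, adjusted p = 0.0115, and 0.49 within the prefix, not called, and 0.54 and not called without WT replicate 2). Tle4 fell from a mean of 56.5 to 42.6 (−0.42, adjusted p = 0.0148, and −0.08 within the prefix, not called), and this call was also lost without WT replicate 3 (−0.40) or KO replicate 1 (−0.36) and with doublets removed (−0.28). Called genes were 17.6% in KO and 0.55% in Het of intermediate progenitor-like cells, and 19.2% and 1.74% in radial glia-like cells, beside 2 and 0 of the 6 factors in each. In Het, Foxp1, Zfpm2 and Tle4 in the former and Tbr1 and Tle4 in the latter had an unadjusted edgeR p under 0.05.

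Cajal-Retzius-like cells, with the most Tbr1, gained more of it. Tbr1 had 208, 225 and 236 CPM in WT, 238, 249.9, 277 and 270.1 in Het, and 304, 339.5 and 323 in KO (0.53 ± 0.08, adjusted p = 0.000598, and 0.33 within the prefix, not called). No embryo of a genotype reached into the next. Tle4 rose in these cells from 56.0, 97.9 and 62.7 to 126, 94.2 and 167, with an overlap of KO and WT (0.85 ± 0.19, adjusted p = 0.0114, and 0.60 within the prefix, not called), and the call was lost under DESeq2 and without WT replicate 1 (0.70) or 3 (0.75) or KO replicate 3 (0.62). Interneuron-like cells had less Foxp1 in KO, from 64.2, 67.1 and 61.7 in WT to 51.1, 42.0, 45.2 and 49.6 in Het and 48.7, 39.3 and 41.2 in KO (−0.58 ± 0.09, adjusted p = 0.0054, and −0.09 within the prefix, not called). Het overlapped KO and lay below WT but did not pass (−0.46, adjusted p = 0.17). Called genes were 5.44% in KO and 0.133% in Het in Cajal-Retzius-like cells, beside 2 and 0 of the 6 factors, and 8.08% and 0.0% in interneuron-like cells, beside 1 and 0, where 1688 genes had an unadjusted edgeR p under 0.05 in Het, Foxp1 among the 6, and DESeq2 called 57 genes and gave no adjusted p for the factors.

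No factor was called in the remaining classes tested. In ganglionic eminence progenitor-like cells 4.3% of genes were called in KO and 0.0545% in Het. Fezf2 had 20.5, 6.95 and 26.6 CPM in KO there, against 7.79, 9.33 and 5.41 in WT (adjusted p = 0.0675), and Tbr1, Zfpm2 and Tle4 also had an unadjusted edgeR p under 0.05 in KO, as had Tbr1 and Zfpm2 in Het. In mural and meningeal-like cells 0.286% and 0.0106% were called, with 5 factors passing the filter on low counts and Foxp1 alone under an unadjusted edgeR p of 0.05 in KO. Only Tle4 and Foxp1 passed the filter in microglia-like cells (1.52% and 0.0% of genes called, with 423 genes under an unadjusted edgeR p of 0.05 in Het, Foxp1 among them, and 23 called by DESeq2) and in erythroid-like cells (7.34% and 0.0849%). DESeq2 called no factor in these 4 classes, nor in Het in both progenitor classes and Cajal-Retzius-like cells. Some factors had no adjusted p from DESeq2 and could not be called. These were 4 in Het and 2 in KO in ganglionic eminence progenitor-like cells, and as many in mural and meningeal-like cells. Microglia-like cells had 1 in Het, erythroid-like cells 1 in KO, and Cajal-Retzius-like cells 3 in Het.

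Over all cells the sum of these changes left Fezf2 and Tbr1 higher. Fezf2 had 80.9, 80.7 and 69.2 CPM in WT, 106, 89.3, 92.1 and 119 in Het, and 179, 145 and 145 in KO (1.02 ± 0.12 in KO, adjusted p = 0.000102, and 0.71 within the prefix; 0.40 ± 0.11 in Het, adjusted p = 0.0542). Neither mutant group overlapped WT. Tbr1 had 97.1, 98.2 and 79.6 in WT, 110.2, 103, 106 and 99.3 in Het, and 130.4, 130.1 and 122 in KO (0.48 ± 0.07 in KO, adjusted p = 0.000677, and 0.26 within the prefix). With the prefix as a covariate the KO change of Tbr1 was 0.37 and was not called, in a fit that rests on Het replicate 4. Shares of the cell classes enter these sums, and layer V-VI-like cells made up 9.19% ± 1.75 of cells in WT, 10.9% ± 1.24 in Het and 11.2% ± 2.08 in KO, within the spread. Intermediate progenitor-like cells, which also held Fezf2 and Tbr1, went from 3.30% ± 0.22 in WT to 4.56% ± 0.86 in Het and 6.24% ± 0.52 in KO. Unnamed cells went from 19.5% ± 0.70 in WT to 15.7% ± 1.43 in KO. KO did not overlap WT for either, and the part of these shares in the sums was not tested. Foxp1 had an adjusted p of 0.0354 with a change of −0.18 ± 0.06, under the threshold of size, and Tle4 (0.03), Zfpm2 (0.24) and Foxp2 (0.15) did not pass. Called genes were 24.5% in KO and 2.98% in Het, beside 2 and 0 of the 6 factors. In Het, Fezf2, Tbr1 and Foxp1 had an unadjusted edgeR p under 0.05, and DESeq2 called Fezf2.

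Genes known to act with or under these factors were taken from lists written with earlier results of these data known. Their counts stand beside the 30.2% of all genes called in KO in layer II-IV-like cells and the 25.5% in layer V-VI-like cells, and nothing particular to a list is read from them. Values within the prefix are KO minus Het replicates 1 to 3. Subcerebral neuron genes, 13 in number, are those of the layer V pathway in which Fezf2 and Bcl11b act. In KO, 6 were called higher and 2 lower in layer II-IV-like cells, with a median of 0.25, and 4 higher and 5 lower in layer V-VI-like cells, with a median of −0.14. Bcl11b, the factor downstream of Fezf2, rose in layer II-IV-like cells from 90.6, 117 and 87.1 CPM in WT to 139, 149, 139 and 172 in Het and 310.2, 318 and 369 in KO (1.76 ± 0.11 in KO, and 1.23 within the prefix). Ntng1, a netrin-like membrane protein, went from 3.25 to 9.02 in the same cells (1.48 ± 0.14, and 0.79 within the prefix). Bcl11b also rose in layer V-VI-like cells (800.2 to 1092, 0.45 ± 0.05, and 0.32 within the prefix). There Diaph3, an actin-nucleating formin, fell from 24.4 to 8.25 (−1.58 ± 0.14, and −1.31 within the prefix), and Cntn6, a contactin adhesion protein, fell from 11.9 ± 1.46 to 0.13 ± 0.11.

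Of 5 genes known to be regulated by Tbr1, layer II-IV-like cells had 2 called higher and 1 lower in KO, with a median of 0.21. Sox5, a factor of early-born neurons, went from 118 to 349 (1.57 ± 0.13, and 1.28 within the prefix) and Bhlhe22 from 523 to 628 (0.26 ± 0.07, and 0.27 within the prefix). Grin2b, an NMDA receptor subunit that the study also named from these samples, fell from 260 to 115 (−1.18 ± 0.09, and −0.71 within the prefix). Layer V-VI-like cells also had Sox5 higher (814 to 1262, 0.63 ± 0.07, and 0.53 within the prefix) and Grin2b lower (615 to 447, −0.46 ± 0.07, and −0.19 within the prefix, not called), with Auts2 higher (696 to 866, 0.32 ± 0.09, and 0.31 within the prefix).

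Genes known to be regulated by Foxp1 or Foxp2 numbered 6, of which 4 passed the filter on low counts in each class. In layer II-IV-like cells 2 of the 4 fell and none rose, Met, a receptor tyrosine kinase (15.6 to 3.16, −2.30 ± 0.15, and −1.76 within the prefix), and Mef2c, a neuronal transcription factor (1584 to 760, −1.06 ± 0.07, and −0.65 within the prefix), with a median of −0.65. In layer V-VI-like cells Met (11.1 to 3.01, −1.87 ± 0.17, and −1.47 within the prefix) and Cntnap2, a neurexin-like protein (25.3 to 8.04, −1.62 ± 0.19, and −1.37 within the prefix), fell, Disc1 rose at a low level (0.42 to 1.22, and 0.69 on the log2 scale within the prefix, not called), and the median was −0.93.

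Among 10 relatives of the factors, 7 were tested in layer II-IV-like cells, where the corepressors Tle1 (62.5 to 76.3, 0.29 ± 0.07, and 0.10 within the prefix, not called) and Tle3 (56.4 to 80.7, 0.52 ± 0.06, and 0.30 within the prefix), Zfpm1 (0.28 ± 0.11, and 0.37 within the prefix) and Foxp4, a forkhead relative (0.29 within the prefix), rose and Tle2 fell (−0.36 ± 0.09, and −0.12 within the prefix, not called), with a median of 0.27. In layer V-VI-like cells Tle1 (16.1 to 21.4, 0.43 ± 0.10, and 0.37 within the prefix) and Tle3 (15.8 to 29.0, 0.86 ± 0.11, and 0.64 within the prefix) were the members called. Tle4 was called in neither class.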

How the data were processed

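Droplet single-cell RNA-seq was done on dissociated cortex of 10 embryos at embryonic day E16.5. The authors deposited raw UMI counts of 31053 genes per barcode, made with Cell Ranger, for which the submitters' processing notes give release 6.0.2 and the mm10 genome; the study's methods name another release. The samples' labels gave the genotypes. Cells with 1000 UMIs or more and no more than 10% mitochondrial UMIs were kept. Seurat 5.3.0 in R 4.3.3 integrated the embryos over 2000 variable genes and 30 principal components, chosen without the 6 factors and the lists, and gave 25 clusters at resolution 0.4. A cluster took the class name of its highest marker score, or of a list within 0.4 of it with more markers among the 10 leading genes, where the score reached 0.5, at least 3 markers were detected in 10% of cells, no other class had more leading markers, the UMI depth was not low without own leading markers, and no more than 50% of cells were marked as doublets. These limits were set after the data had been seen. Cluster 23 scored for interneurons (0.893) and stayed unnamed because 99.3% of its cells were marked. Clusters 5, 7, 12, 13, 16 and 23 stayed unnamed (19.5% ± 0.70 of cells in WT, 16.3% ± 1.97 in Het and 15.7% ± 1.43 in KO), so shares of classes rest on rebuilt names. Doublet scores (scanpy 1.11.5) marked 4.80% to 8.31% of barcodes per library at the rate set by library size, since the caller's own threshold marked 0.034% to 2.53%. Marked cells were kept, except in an alternative.

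UMI counts were summed per embryo and class. Within clusters the study tested genes with MAST, a single-cell method. Here embryos, and not cells, were the replicates, and p-values measure the spread between embryos. edgeR 4.0.16 fitted all 10 embryos with its quasi-likelihood test, after filterByExpr and TMM scaling, with Benjamini-Hochberg adjustment over all genes tested. Genes with adjusted p below 0.05 and a log2 change above 0.25 in size were called. CPM values are TMM-scaled, except in the plot by class, the WT levels by class, marker sums, the upper-minus-deep difference and the unnamed clusters, which are plain UMIs per 1000000. Classes with fewer than 20 cells in an embryo (endothelial-like) were not tested. On simulated counts with 200 changed genes, 88.5% of changes of 1 and 63.7% of 0.5 on the log2 scale were called in layer II-IV-like cells, and 87.7% and 71.7% in layer V-VI-like cells. Shares of cells were the exact expectation after thinning, tested by exact two-sided permutation over embryos. scipy 1.17.1, numpy 2.4.6 and pandas 2.3.3 were used.

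The factors and lists were chosen with earlier results of these data known. Named were the factors, Gatad2b, Bcl11b, from each list up to 4 called genes with the largest change in KO in layer II-IV-like or layer V-VI-like cells, and per factor the 3 genes of most similar pattern among those reaching 50 CPM in a cluster. Rprm, Hs3st4 and other layer markers were named after their values were seen. Alternatives were DESeq2 1.42.0, other filters, a replicate block, a prefix covariate, resolution 0.8 and leaving out embryos. The clusters of resolution 0.8, clusters 0, 1 and 10 on their own or with equal weight, settings for the upper-minus-deep difference, and the values within the prefix of list genes, marker sums and pairs of genes were added after seeing the data.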

Additional observations from a re-analysis of the deposited data

Results flagged for a closer look

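In 141 groups of 4 embryos, 1 embryo stood farther from the rest than Dixon's 95% limit allows in 9, and chance alone gives about 1 in 20. These were all Het, the genotype with 4 embryos. Het replicate 4, which carries the WT prefix, accounted for 6. In cluster 0 of the layer II-IV-like cells it was highest in its genotype for Fezf2 (69.5 CPM, and 23.2% of cells with a UMI) and for Foxp1 (74.8 CPM and 29.1% of cells). It was also highest for the share of cells with Fezf2 in cluster 10 (15.1%) and for Tle4 in microglia-like cells (201 CPM). Het replicate 3 had 97.6 CPM of Foxp2 in intermediate progenitor-like cells, Het replicate 1 had 21.4 CPM of Foxp2 in interneuron-like cells, and in Het replicate 2 the share of cluster 4 cells with both Tbr1 and Bcl11b was 72.01%.

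In 5 pairs of classes every KO embryo lay on one side of all WT embryos in one class and on the opposite side in the other. Only changes of a factor called in both classes were searched. How many of all genes do the same was not counted, so nothing particular to the factors is read from it. The log2 fold changes of Foxp1 in KO vs WT were 0.53 in intermediate progenitor-like and 0.46 in layer V-VI-like cells, against −0.58 in interneuron-like and −0.65 in layer II-IV-like cells. They differed by 1.11 and 1.18 for intermediate progenitor-like cells against interneuron-like and layer II-IV-like cells, and by 1.04 and 1.11 for layer V-VI-like cells against the same 2 classes. For Foxp2, striatal-like cells (0.46) and layer V-VI-like cells (−0.70) differed by 1.16. These differences were not tested, apart from layer II-IV-like against layer V-VI-like cells given above, where the exact permutation p of 0.1 is the smallest that 3 against 3 embryos allow.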

How the results depend on the processing

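The 12 changes of a factor called in all cells, layer II-IV-like or layer V-VI-like cells kept their direction under each of 257 alternatives, and 16 of these lost the call. In the other classes and single clusters, 38 called changes met 751 alternatives, of which 109 lost the call and 2 turned the direction. For KO changes the alternatives include KO minus Het within the prefix, which compares other genotypes than KO vs WT does. The cause was not tested for any of the values below, which are log2 fold changes unless named otherwise.

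With DESeq2 in place of edgeR, Fezf2 in Het was called over all cells (0.40) and not in layer II-IV-like cells (0.62), and Zfpm2 was called in KO layer II-IV-like cells (−0.45), as it also was without a filter on low counts (−0.47), with only WT and KO fitted (−0.46), with doublets removed (−0.60) and without integration of the embryos (−0.94). Doublet removal also called Zfpm2 in Het layer II-IV-like cells (−0.50). With only WT and Het fitted, the Het change of Fezf2 in layer II-IV-like cells (0.62) was not called, nor was it at resolution 0.8 (0.44).

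The replicate numbers do not pair embryos. Deviations of same-numbered embryos from their genotype means correlated between −0.21 and 0.13. Only Het has a replicate 4, so a block on the replicate number takes Het replicate 4 out of both comparisons. The block is thus no alternative apart from leaving out that embryo, which gave 0.32 for Fezf2 in Het over all cells. With the replicate number as a block, Fezf2 in Het over all cells (0.32) and Zfpm2 in layer II-IV-like cells of Het (−0.56) and KO (−0.46) were called, and Tle4 in Het turned to −0.063 in layer II-IV-like and −0.0256 in layer V-VI-like cells. The block changed no other call of a factor in these 3 populations.

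With the library prefix as a covariate, Tle4 in Het was 0.25 over all cells. Tbr1 in KO over all cells (0.37) and in Het layer II-IV-like cells (0.18) lost the call. In layer II-IV-like cells Foxp2 (0.014) and Zfpm2 (0.091) in Het and Zfpm2 (0.20) and Tle4 (0.14) in KO turned positive, as did Foxp2 in Het layer V-VI-like cells (0.049) and in KO cluster 1 (0.085). Tle4 in KO layer V-VI-like cells was called (0.45). Within the prefix, KO minus Het turned positive for Zfpm2 in layer II-IV-like cells (0.12), Foxp2 in cluster 1 (0.085) and the upper-minus-deep difference of Zfpm2 (0.10).

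Without integration, Foxp2 in Het layer II-IV-like cells was called (−0.37) and Fezf2 in Het layer V-VI-like cells was not (0.26). The layer V-VI-like class then also held a cluster of 3082 cells led by Crym and Grp. These genes lead a cluster that stayed unnamed in the main clustering, so partly other cells were tested. In KO layer II-IV-like cells Foxp2 was −0.12 and Tle4 0.023, and Tle4 in Het layer V-VI-like cells was −0.031. The upper-minus-deep difference of Tle4 in Het was 0.064, and 0.025 with doublets removed and 0.0099 with at most 5% mitochondrial UMIs. That limit also gave −0.13 for Tle4 in KO over all cells, −0.0011 for Foxp2 in KO layer II-IV-like cells, 0.11 for Foxp2 and an uncalled 0.22 for Fezf2 in Het layer V-VI-like cells. Tle4 in Het over all cells turned to 0.0033 with at least 3000 UMIs per cell and to 0.010 with doublets removed. The upper-minus-deep difference of Foxp2 in KO was −0.087 with cluster 1 alone as the upper class.

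The difference in the share of layer II-IV-like cells with a UMI between KO and WT turned, in percentage points, for Tle4 to 0.014 without integration, 0.31 at 10000 UMIs and 1.09 without thinning, for Foxp2 to −0.079 without integration and −1.18 with clusters weighted equally, and for Foxp1 to 0.055 without thinning. For Tle4 in Het it was −0.81 with equal weights. Tbr1 with Bcl11b in Het layer V-VI-like cells passed the exact permutation test over the 3 pairs at resolution 0.8 (5.48 points) and at 10000 UMIs (5.34), while Fezf2 with Tbr1 (5.48) and Fezf2 with Bcl11b (6.70) did not without integration.

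Leaving out 1 embryo at a time gave the following ranges. Calls were gained for Fezf2 in Het over all cells without Het replicate 4 (0.32), Zfpm2 in KO over all cells without KO replicate 2 (0.33), Zfpm2 in layer II-IV-like cells in Het without Het replicate 4 (−0.57) and in KO without Het replicate 3 or 4 (−0.45 each) or KO replicate 3 (−0.58), and Tle4 in KO layer V-VI-like cells without WT replicate 2 (0.28). In Het over all cells Fezf2 lay between 0.32 (without Het replicate 4) and 0.45 and Tle4 between −0.11 and 0.065, and in KO Zfpm2 between 0.10 and 0.33 and Tle4 between −0.10 and 0.11. In Het layer II-IV-like cells Fezf2 lay between 0.38 (without Het replicate 4) and 0.73, Tbr1 between 0.21 and 0.39, Zfpm2 between −0.57 and −0.24 and Tle4 between −0.051 and 0.11, and in KO Foxp2 between −0.18 and 0.13 and Zfpm2 between −0.58 and −0.37. In layer V-VI-like cells Foxp2 lay between −0.087 and 0.058 and Tle4 between −0.027 and 0.11 in Het, and Tle4 between 0.13 and 0.28 in KO. Shares of layer II-IV-like cells moved by −0.13 to 0.74 points for Tle4 in Het, −1.04 to 0.0019 for Tle4 in KO and −0.42 to 0.60 for Foxp2 in KO. Cells with both genes in Het rose by 5.78 to 7.90 points for Fezf2 with Tbr1 and 6.07 to 7.42 for Fezf2 with Bcl11b, and the upper-minus-deep difference of Tle4 in Het lay between −0.11 and 0.018. With 3 against 3 or 2 against 4 embryos left, no exact permutation test could pass.

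Counts of called genes moved by more than 1.5 times in these cases. Over all cells the 525 genes in Het became 1002 with DESeq2, 1850 with the replicate block, 41 with the prefix covariate, 159 with only WT and Het fitted, 74 without WT replicate 1 and 1829 without Het replicate 4, and the 4326 in KO became 1467 with the prefix covariate and 1054 within the prefix. In layer II-IV-like cells the 962 in Het became 1713, 246 with the covariate, and 456 without WT replicate 3 to 1684 without Het replicate 4, and the 4400 in KO became 2313 and 1801. In layer V-VI-like cells the 297 in Het became 758 without the filter, 964 with the block, 88 with the covariate, 188 with at most 5% mitochondrial UMIs, 159 at resolution 0.8, 196 without integration, and 73 without Het replicate 1 to 939 without Het replicate 4, and the 3383 in KO became 1649 and 1538. Depth limits what can be said of Zfpm2 and Foxp2 in layer II-IV-like cells, where without thinning at most 6.72% and 9.82% of cells, as genotype means, held a UMI.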

Other observations

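Some cells that received no class name also held the factors. Cluster 7 (2635 cells), led by Crym, Grp and Zbtb20 and without a marker score that passed, had 141 ± 24.1 UMIs of Fezf2 per 1000000 in WT, 159 ± 13.7 in Het and 222 ± 14.5 in KO, and KO embryos (211 to 238) did not overlap WT embryos (118 to 167). Zfpm2 had 97.8 ± 17.3, 98.7 ± 6.86 and 125 ± 7.47 in the same cells, and Foxp1 204 ± 27.8, 237 ± 34.3 and 237 ± 13.4. Tle4 went the other way, with 51.5 ± 8.15, 39.3 ± 2.68 and 33.5 ± 1.75. In cluster 5 (4021 cells), led by Fam19a1, Tfap2d and Thsd7a, with a layer V score just under the limit for a name, Fezf2 had 32.1 ± 10.6 in WT, 39.9 ± 23.0 in Het and 70.8 ± 8.60 in KO. Tbr1 had 171 ± 25.5, 177 ± 24.0 and 208 ± 24.3 there, and Zfpm2 22.5 ± 5.26, 32.5 ± 15.5 and 49.2 ± 12.8. Foxp2 was low in both clusters, with WT means of 5.92 and 8.82. These values are descriptions, and no test was run on unnamed cells.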
